A study of Mus musculus with 3 samples.

Results

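Acute-phase secreted proteins were represented here by 6 genes, Hp, Cp, Saa3, Lcn2, Ptx3 and Orm1, which were chosen by their intensities and differences on these same arrays. Their members were the probe sets, groups of short oligonucleotides that read one transcript, that the platform annotation assigned to exactly 1 of these genes. There were 7 such probe sets for 5 of the genes, out of 28898 probe sets annotated to 1 gene and 45141 on each array. Hp, Saa3 and Lcn2 had 1 probe set each, Cp and Ptx3 had 2 each, and no value is given for Orm1. Because those values entered the choice, the members' differences are given as a description, with no test.

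The cells were mesenchymal progenitors, the stromal cells that form fibroblast colonies, and the labels call them PaS+. All 3 samples were BM-derived cells of adult C56Bl/6 mice aged 8 weeks, were FACS-sorted, were grown for 7 days in 1% oxygen in MesenCult complete medium and were transduced overnight with a lentiviral vector. The vector carried a control short hairpin RNA (shCTR), a hairpin against HIF-1a (shHIF-1a) or one against HIF-2a (shHIF-2a), and RNA was taken 4 days later. There was 1 array per hairpin and no untransduced sample, so no difference has a replicate check. An effect of a hairpin's sequence cannot be told apart from one of its target, and the number of animals behind each sample is not given in the labels.

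Acute-phase proteins are secreted proteins whose blood level moves sharply in infection, injury or inflammation. Interleukin-6 acting through STAT3, and interleukin-1 acting through NF-kB, drive their genes together with the C/EBP transcription factors. The liver is the main source in the circulation, whereas fibroblasts, fat cells and other stromal cells also make several of them. Haptoglobin (Hp) binds free haemoglobin, ceruloplasmin (Cp) is a copper-carrying ferroxidase, lipocalin-2 (Lcn2) captures bacterial iron carriers, serum amyloid A3 (Saa3) is a lipoprotein-associated protein made largely outside the liver, pentraxin 3 (Ptx3) is a pattern recognition protein of innate immunity, and orosomucoid 1 (Orm1) is a carrier glycoprotein.

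The sequence before the start of transcription was searched for the letters of factors named above, because 4 members whose values are described below had an entry in the RefSeq promoter table (build GRCm38.p6). The 250 bases before the start were read on both strands for TTGCNNAA (C/EBP), TTCNNNGAA (STAT), GGG and TTTCC on either side of NN (NF-kB) and ACGTG (the core of the hypoxia response element). The C/EBP letters occurred in 4 of the 5 windows of these genes, with a match in each gene, against 9.56% of the 32851 windows in the table. The other motifs occurred in 0 of the 5. They were held by 7.02% (STAT), 1.41% (NF-kB) and 16.6% (hypoxia core) of all windows. One of the 2 Cp entries held no match, and Hp and Orm1 had no entry. For Lcn2 and Ptx3 the whole window is shown, and for Cp and Saa3 only the 30 bases around the match. Capitals mark the C/EBP letters, and each sequence runs 5′ to 3′ on the gene's strand. A match is a description of the sequence and does not show that a factor binds there, and the lack of a match says only that the letters are not in this window.
Cp, chr3:19957168-19957197, + strand: attagttactcTTTTGCAAcattaaattgt
Saa3, chr7:46715757-46715786, - strand: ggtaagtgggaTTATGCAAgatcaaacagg
Lcn2, chr2:32387740-32387989, - strand: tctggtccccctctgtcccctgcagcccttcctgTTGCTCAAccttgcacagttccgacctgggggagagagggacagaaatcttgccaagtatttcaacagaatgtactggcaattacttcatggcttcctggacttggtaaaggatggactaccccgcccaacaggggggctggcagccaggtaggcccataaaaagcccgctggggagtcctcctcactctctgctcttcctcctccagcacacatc
Ptx3, chr3:66219637-66219886, + strand: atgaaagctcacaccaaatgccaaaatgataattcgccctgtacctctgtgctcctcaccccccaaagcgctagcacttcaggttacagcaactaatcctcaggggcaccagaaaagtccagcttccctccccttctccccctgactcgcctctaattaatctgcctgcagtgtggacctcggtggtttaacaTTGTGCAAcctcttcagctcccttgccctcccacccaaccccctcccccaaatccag
In these windows the match began 57 bases before the start in Ptx3, 70 in Cp, 99 in Saa3 and 216 in Lcn2.

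Values are RMA intensities on a linear scale. A value was marked dim when it did not exceed 3.47, the highest of 23 nonspecific control probe sets on any array. By that level 42.1% of the 1-gene probe sets were above background on the control array, 44.8% on the shHIF-1a array and 45.4% on the shHIF-2a array. The transcripts targeted by the hairpins check the labels. Hif1a read 352 on the control array and 332 on both hairpin arrays, so it did not separate them, and Epas1, which encodes HIF-2a, read 5.09 on the control, 9.44 on the shHIF-1a and 3.21 on the shHIF-2a array, the last of them dim. The arrays are therefore called HIF-1a-labelled and HIF-2a-labelled, and every direction below rests on the labels. Among 598 genes with several probe sets of mean intensity 64 or more, the probe sets of a gene differed with a pooled SD of 0.11 (HIF-1a-labelled minus control), 0.18 (HIF-2a-labelled minus control) and 0.13 (HIF-2a-labelled minus HIF-1a-labelled) on the log2 scale. This SD is technical and holds no variation between cultures.

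Haptoglobin stood furthest apart. Hp (Entrez gene 15439) had an intensity of 593 on the control array, 741 on the HIF-1a-labelled array and 133 on the HIF-2a-labelled array. The HIF-2a-labelled array was thus the low one, and its value was 22.4% of control and 17.9% of the HIF-1a-labelled value. On the log2 scale the differences were 0.32, −2.16 and −2.48 in the order HIF-1a-labelled minus control, HIF-2a-labelled minus control and HIF-2a-labelled minus HIF-1a-labelled. The HIF-2a-labelled difference from control was the third lowest of 13208 probe sets above the nonspecific level on either array. Of the 200 probe sets nearest to Hp in mean intensity, 0 had a lower value of that difference, and their 10th to 90th percentiles ran from −0.20 to 0.16. In the HIF-1a-labelled comparison 199 of the 200 were lower than Hp, but only 72.6% of all 13028 probe sets compared were. Fewer cells that make a transcript and less of it per cell cannot be told apart in bulk RNA.

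Ceruloplasmin was the other member past 2-fold. The brighter Cp probe set (Entrez gene 12870) read 245 on the control array, 236 on the HIF-1a-labelled array and 105 on the HIF-2a-labelled array. The first pair lay close together and the HIF-2a-labelled value was 42.8% of control. The log2 differences were −0.05 for the HIF-1a-labelled and −1.23 for the HIF-2a-labelled array against control, and −1.17 between the hairpins. None of the 200 probe sets of like intensity had a lower difference between the HIF-2a-labelled and control arrays, and 1 had a lower one between the hairpins. The second Cp probe set did not follow: it read 3.73 on the control and 4.14 on each hairpin array, barely above the nonspecific level, and its difference from control turned from 0.15 to −0.13 and −0.20 once the median of like probe sets was taken off. With both probe sets averaged after raising dim values to that level, the Cp differences were −0.54 from control and −0.59 from the HIF-1a-labelled array, both under 2-fold.

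Saa3 and Lcn2 read near the top of the intensity scale, whose highest value on the control array was 1747. The Saa3 probe set (Entrez gene 20210) read 1459 on the control, 1416 on the HIF-1a-labelled and 1219 on the HIF-2a-labelled array. The Lcn2 probe set (Entrez gene 16819) read 1345, 1389 and 1113 in that order. Both genes were lowest on the HIF-2a-labelled array and nearly level on the other arrays.

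The HIF-2a-labelled minus control difference was −0.26 for Saa3, or 83.5% of control, and −0.27 for Lcn2, or 82.7% of control. The 200 probe sets nearest to each in intensity had a 10th to 90th percentile range of −0.22 to 0.05, and 13 of them were lower than Saa3 and 9 lower than Lcn2. Only 36 probe sets had a mean intensity of 1000 or more, so most of the 200 were dimmer than Saa3 and Lcn2. Thus both lay at the low edge of these probe sets, at differences above the pooled SD of 0.18 between probe sets of a gene but less than 2 times as large. After cyclic loess scaling between arrays the differences were −0.14 for Saa3 and −0.16 for Lcn2, under that SD. Against control the HIF-1a-labelled array differed by −0.04 for Saa3 and 0.05 for Lcn2, both under the SD of 0.11, and over the alternatives these ran from −0.11 to 0.06 and from −0.03 to 0.14, so neither kept its sign.

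Pentraxin 3 was intermediate. The brighter Ptx3 probe set (Entrez gene 19288) read 565 on the control, 493 on the HIF-1a-labelled and 386 on the HIF-2a-labelled array. Its values were therefore highest on the control array and lowest on the HIF-2a-labelled array. The log2 differences from control were −0.20 and −0.55, and the hairpin arrays differed by −0.35. Of the 200 nearest probe sets, 2 were lower than Ptx3 in each comparison with control and 12 were lower in the comparison between the hairpins. The second Ptx3 probe set was under the nonspecific level on every array, at no more than 1.35, and carries no information on the direction.

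**Figure D1:**
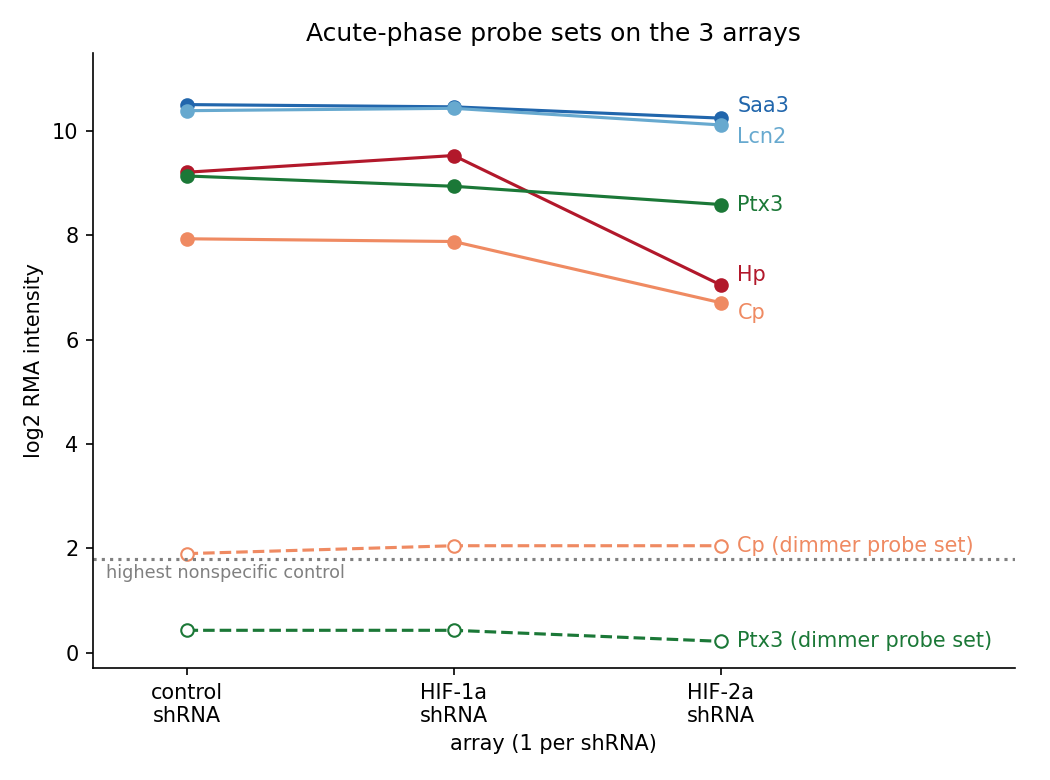
The log2 RMA intensity of the 7 probe sets is plotted for the control, HIF-1a-labelled and HIF-2a-labelled arrays (1 array each, so there are no error bars), with the highest nonspecific control as a dotted line and the dimmer probe sets of Cp and Ptx3 as open symbols with dashed lines. Hp read 593 (control) and 133 (HIF-2a-labelled), and the lines of Saa3 and Lcn2 stayed near the top of the scale.

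By the fold rule, 2 of the 7 probe sets (Hp and the brighter one of Cp) were at least 2-fold lower on the HIF-2a-labelled array than on control and 0 were higher; 6 of the 7 exceeded the nonspecific level. Of the 13208 probe sets above that level on either array, 0.447% were at least 2-fold lower and 8.18% at least 2-fold higher in that comparison. The same 2 probe sets were at least 2-fold lower than on the HIF-1a-labelled array, where the shares were 0.728% lower and 1.16% higher of 13190 such probe sets. Between the HIF-1a-labelled and control arrays 0 of the 7 passed 2-fold in either direction, against 4.37% higher and 0.0537% lower of 13028. Since these contrasts entered the choice of members, nothing is read from the counts or from the medians that follow. The brighter probe sets of all 5 genes were below both other arrays on the HIF-2a-labelled array. Their median difference was −0.55 from control and −0.35 from the HIF-1a-labelled array, whereas the medians over all probe sets compared were 0.15 and 0.00. Against control the HIF-1a-labelled array gave a member median of −0.04, with 2 genes higher and 3 lower. The median over all probe sets was 0.11, and at those same intensities it was 0.01, 0.00 and 0.00. The comparisons share arrays and are not independent.

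**Figure D2:**
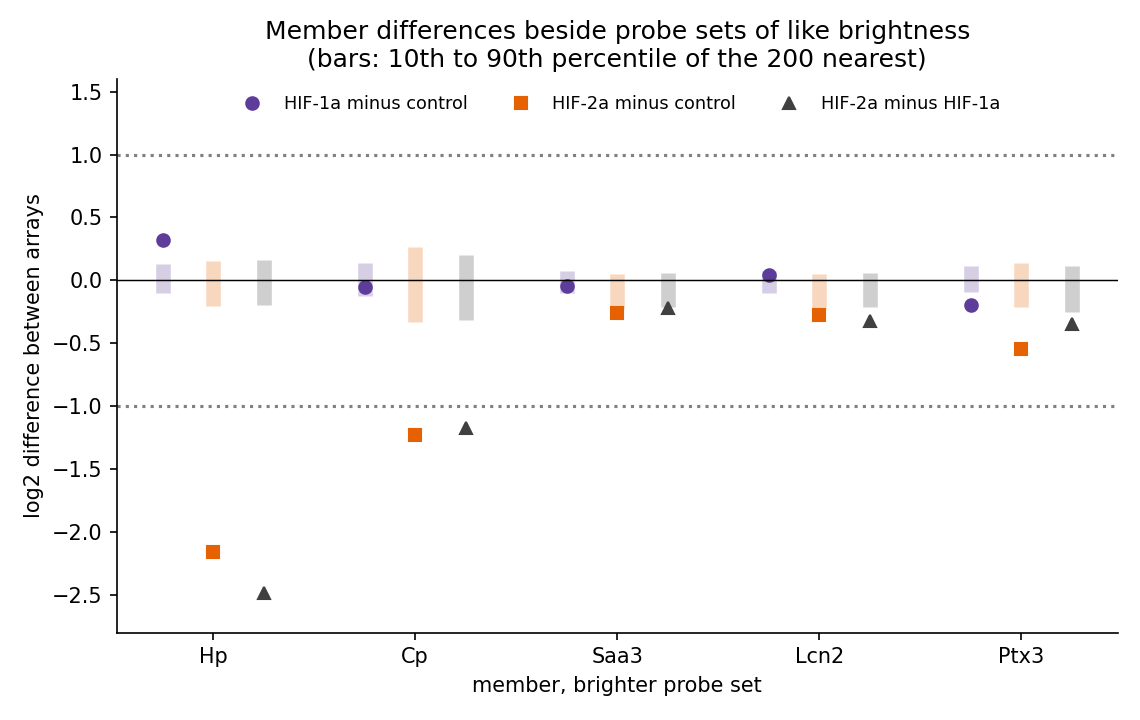
Symbols give the log2 difference of the brighter probe set of each of the 5 genes in 3 comparisons, and pale bars run from the 10th to the 90th percentile of the 200 probe sets nearest in mean intensity; dotted lines mark 2-fold. Hp (−2.16) and Cp (−1.23) lay far below the bars for the HIF-2a-labelled array, and Saa3 (−0.26) and Lcn2 (−0.27) just below them.

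Further acute-phase genes that had been listed beside the members were read the same way, each by its brightest probe set. This list was written with earlier results of these data known, so nothing is read from its counts or medians. Of 29 genes listed, 24 were on the array and 8 exceeded the nonspecific level on at least 1 array. On the HIF-2a-labelled array 3 of these 8 were at least 2-fold lower than control and 0 were higher, where 0.518% of the 8886 genes above the level on either array were lower and 7.49% higher. The 8 had a median of −0.93, with 7 below 0 and 1 above, while the median of all 8675 genes whose mean exceeded the level was 0.14. Against the HIF-1a-labelled array 4 of the 8 were at least 2-fold lower (0.834% of 8878 genes above the level, with 1.18% higher), and between the HIF-1a-labelled and control arrays 0 passed 2-fold (0.0568% of 8796 such genes were lower and 4.02% higher), with a median of 0.10 that equalled the 0.10 of all genes.

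Serpina3n, a serine protease inhibitor, read 21.7 on the control, 22.3 on the HIF-1a-labelled and 6.01 on the HIF-2a-labelled array, a log2 difference of −1.85 from control. Lrg1, a leucine-rich glycoprotein of the blood, read 7.81, 12.9 and 2.14, and because its last value was dim it was at least 2.25-fold lower than control. Steap4, a membrane metalloreductase and the third gene past 2-fold, read 64.9, 72.9 and 30.5. In all 3 genes the HIF-2a-labelled array was the low one and the HIF-1a-labelled array the highest.

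Lbp, whose product hands bacterial lipopolysaccharide to its receptors, read 162 on the control, 188 on the HIF-1a-labelled and 84.4 on the HIF-2a-labelled array. It was 2.22-fold lower than on the HIF-1a-labelled array and had a difference of −0.94 from control, just under 2-fold. The average of its probe sets differed by −0.82 between the hairpins, and averaging took the Steap4 difference from control to −0.55, since each has a second probe set that was dim on the HIF-2a-labelled array. The liver-type serum amyloid genes were also lowest on the HIF-2a-labelled array. Saa1 read 199, 181 and 120 and Saa2 read 200.2, 166 and 106, with differences from control of −0.74 and −0.92 on the HIF-2a-labelled array. The Saa2 probe set is of the kind shared between similar transcripts, so the split between Saa1 and Saa2 is uncertain, and the other Saa2 probe set gave −0.47. Mt1, a metal-binding metallothionein, read 1633, 1607 and 1409 by a probe set that is also of the shared kind. The other Mt1 probe set read 14.7, 14.9 and 10.6, a difference from control of −0.47 on the HIF-2a-labelled array. Tnfaip6, a hyaluronan-binding protein that also binds Ptx3, was near the nonspecific level at 4.08 to 4.88.

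Most liver-restricted acute-phase genes were not seen. Crp, the classical C-reactive protein, its relative Apcs, all 3 fibrinogen chain genes, haemopexin (Hpx) and hepcidin (Hamp) were dim on every array. Orm2 and Orm3, the close relatives of Orm1, read 1.05 and 0.98 on each of the 3 arrays, under the nonspecific level.

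**Figure D3:**
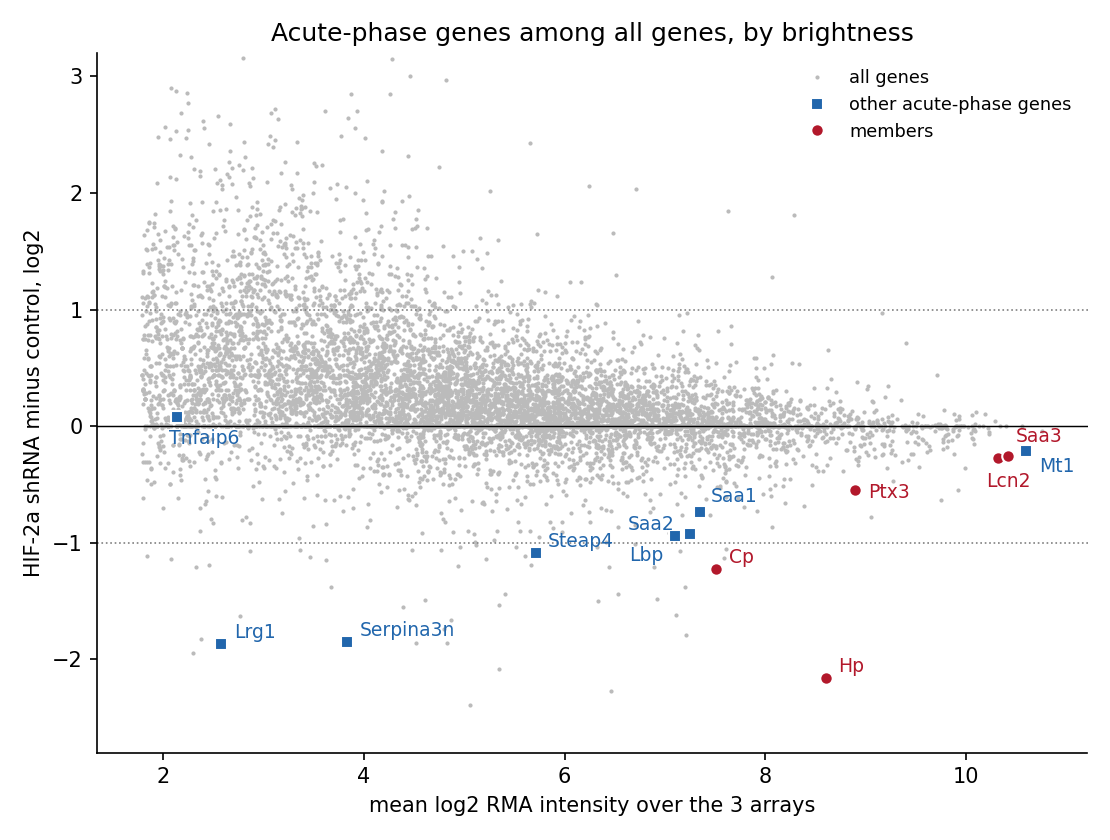
Each of 8675 genes is placed by its mean log2 RMA intensity over the 3 arrays and its log2 difference between the HIF-2a-labelled and control arrays, with members as red circles, other acute-phase genes above the nonspecific level as blue squares, dotted lines at 2-fold and 34 genes outside the axes. Hp (−2.16) lay well under genes of like brightness; Lrg1 is drawn at its deposited value, which was dim on the HIF-2a-labelled array.

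The inducers and their signalling genes were all under 2-fold by their brightest probe sets. Of 28 listed genes 26 were on the array, 23 exceeded the nonspecific level, and 0 were at least 2-fold higher or lower in any of the 3 comparisons. Since 7.49% of genes above the level were higher and 0.518% lower on the HIF-2a-labelled array than on control, and smaller shares were higher in the other comparisons, a count of 0 in 23 lies near the overall share and nothing is read from it. Il6, the main inducing cytokine, was bright at 453 on the control, 532 on the HIF-1a-labelled and 475 on the HIF-2a-labelled array. It was highest on the HIF-1a-labelled array and its difference from control on the HIF-2a-labelled array was 0.07. Lif, a cytokine that signals through the same receptor chain, read 82.0, 100.3 and 92.6. Il1a, Il1b and Tnf were dim on every array.

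The median difference of the 23 genes was 0.08 on the HIF-1a-labelled and 0.00 on the HIF-2a-labelled array, where 10 genes were above 0, 10 below and 3 equal. Receptors went both ways. Il6st, the shared receptor chain gp130, read 152 on the control, 159 on the HIF-1a-labelled and 131 on the HIF-2a-labelled array. A dimmer Il6st probe set read 5.42, 7.87 and 6.72, above control on both hairpin arrays. Il6ra, the interleukin-6 receptor, was lower on both hairpin arrays (5.05) than on control (7.63). Osmr, the oncostatin M receptor, read 199.6, 203 and 158. Il17ra, the interleukin-17 receptor, was higher on both hairpin arrays (16.9) than on control (12.7). Il1r1, the signalling receptor of interleukin-1, read 29.3, 29.9 and 15.5, with a difference from control of −0.91 that reached −1.09, past 2-fold, after cyclic loess scaling between arrays. It was the gene of this list with the lowest value of that difference. Stat3 read 89.6, 94.1 and 88.3 and so was nearly level. Socs3, a feedback inhibitor that STAT3 induces, read 31.9 on the control, 45.6 on the HIF-1a-labelled and 28.0 on the HIF-2a-labelled array, in the same order as Hp.

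Among the transcription factors, Cebpb read 335 on the control and HIF-2a-labelled arrays and 357 on the HIF-1a-labelled array by its brightest probe set. Its second bright probe set read 166, 160 and 130, so the Cebpb probe sets differed in their order. Cebpd read 283, 291 and 224, a difference from control of −0.34 on the HIF-2a-labelled array. Nfkbiz, a nuclear co-regulator of NF-kB that Lcn2 needs for its induction, read 282, 330 and 289. Its second bright probe set read 175, 208 and 166, lowest on the HIF-2a-labelled array, and a dimmer one read 37.8, 38.7 and 37.8. Rela, an NF-kB subunit, read 126, 121 and 132.

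Iron and haem genes handle the cargo that Hp, Cp and Lcn2 bind or act on. Of 19 listed genes 16 were on the array, 12 exceeded the nonspecific level on at least 1 array, and by their brightest probe sets 0 were at least 2-fold higher or lower in any comparison, beside 7.49% higher and 0.518% lower over genes above the level on the HIF-2a-labelled array against control, a share from which 0 of 12 is not far. Their median difference was 0.00 on the HIF-1a-labelled and −0.09 on the HIF-2a-labelled array. Fth1, the ferritin heavy chain, read 1461 on the control, 1438 on the HIF-1a-labelled and 1209.8 on the HIF-2a-labelled array, close to the pattern of Saa3. Hmox1, which degrades haem, read 605, 528 and 589. Slc40a1 (ferroportin), the iron exporter that works with ceruloplasmin, read 24.1, 21.5 and 16.4. Heph, the membrane-bound relative of ceruloplasmin, went the other way from Cp, with 9.15 on the control and 15.7 on each hairpin array. Tfrc, the transferrin receptor through which cells take up iron, gave different answers by probe set. Its brightest one read 153 on all 3 arrays, exactly equal values, while another read 3.52 on the control, 11.4 on the HIF-1a-labelled and 47.0 on the HIF-2a-labelled array, a log2 difference from control of 3.74 on the last. The remaining one read 2.85, 3.02 and 5.07, and the average of the Tfrc probe sets was 1.43 above control on the HIF-2a-labelled array, past 2-fold. Lrp1, which takes up the haem-haemopexin complex, read 128 on the control and HIF-1a-labelled arrays and 85.4 on the HIF-2a-labelled array. A dimmer Lrp1 probe set read 3.90, 5.21 and 5.05, above control on both hairpin arrays.

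**Figure D4:**
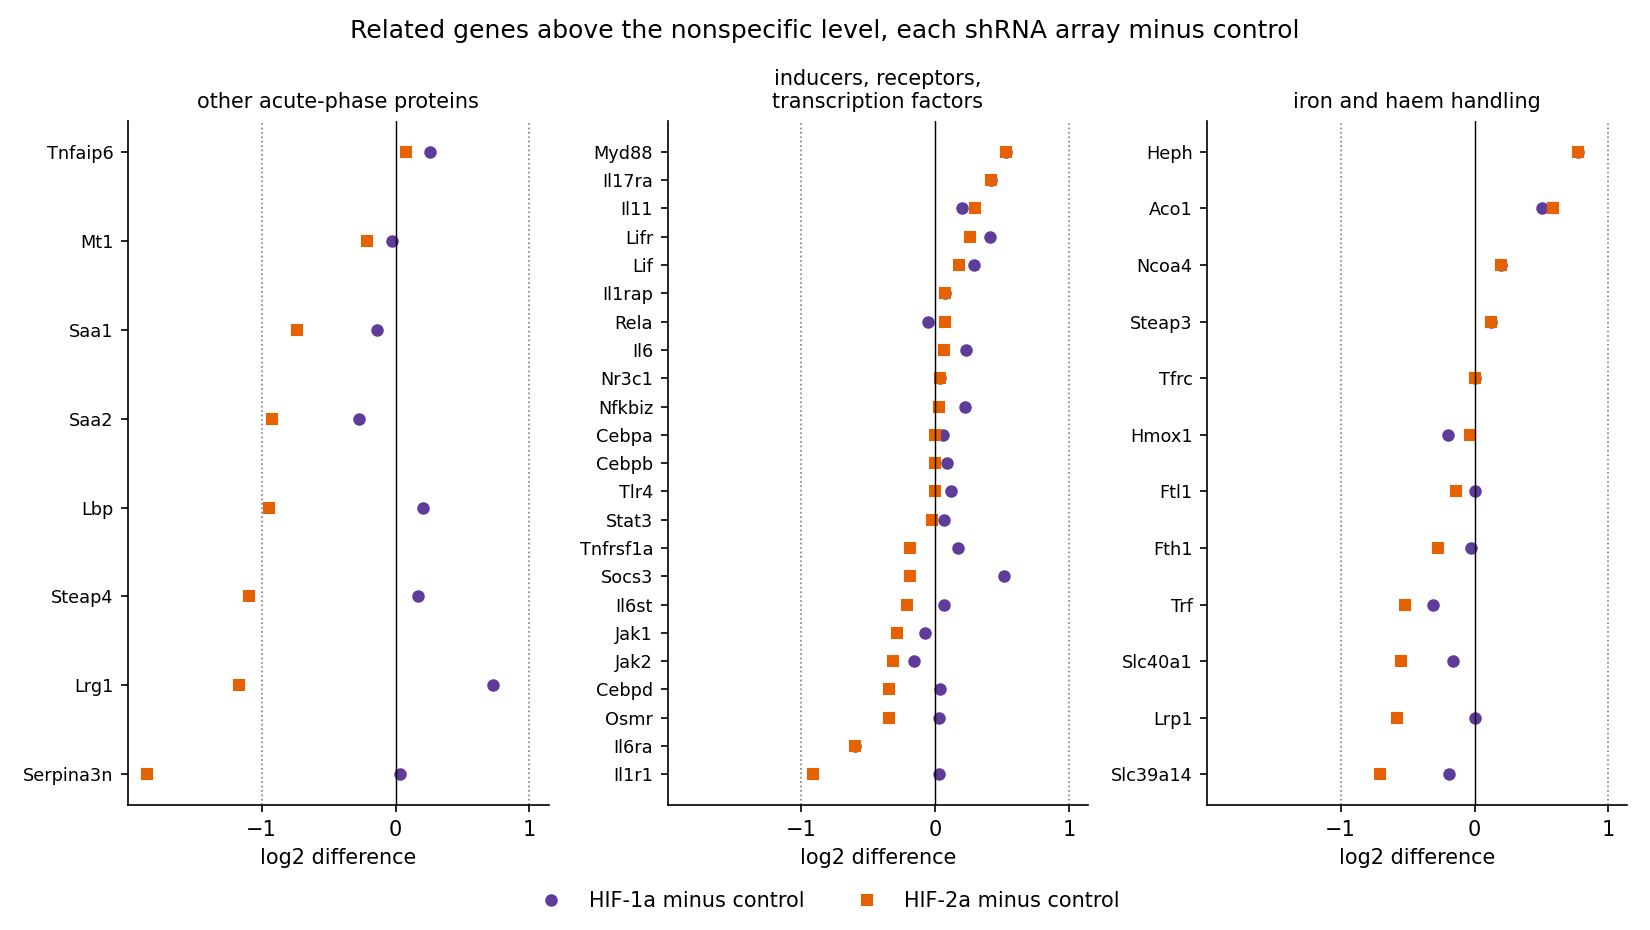
For genes above the nonspecific level on at least 1 array, symbols give, for the brightest probe set, the log2 difference of the HIF-1a-labelled (circles) and HIF-2a-labelled (squares) arrays from control, with dim values raised to the nonspecific level and dotted lines at 2-fold. In the left panel 3 other acute-phase genes lay past 2-fold on the HIF-2a-labelled array, and in the middle and right panels 0 genes did.

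Markers of other cell types that make these proteins were set beside the members. None of the 6 hepatocyte markers on the array exceeded the nonspecific level, and their summed intensity was 7.54 on the control, 6.26 on the HIF-1a-labelled and 6.16 on the HIF-2a-labelled array. Albumin (Alb) and transthyretin (Ttr) were thus dim where Hp was bright. Endothelial markers were also all dim (0 of 5). Of 7 macrophage and leukocyte markers the summed intensity was 101, 96.4 and 106, nearly all from Cd14, while Ptprc, Adgre1, Csf1r, Itgam and Lyz2 were dim on every array. Cd68 reached 7.24 on the HIF-2a-labelled array alone.

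Neutrophils store haptoglobin and lipocalin-2 in their granules. Of 8 neutrophil markers 2 exceeded the level, and Elane, Mpo, Ltf, Ngp, Cxcr2 and S100a9 were dim on every array. The other two were Camp, an antimicrobial peptide, at 236 on the control, 264 on the HIF-1a-labelled and 154 on the HIF-2a-labelled array, and S100a8, at 19.8, 41.0 and 53.3. The summed intensity of the 8 was 263, 312 and 214. Camp had the order of Hp over the arrays and S100a8 the opposite order between the hairpins.

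Fat cells also secrete haptoglobin. Of 4 adipocyte markers on the array, 2 exceeded the level, and the summed intensity was 303 on the control, 406 on the HIF-1a-labelled and 169 on the HIF-2a-labelled array. Fabp4, a fatty acid carrier, read 298, 394 and 164 in that order by its brightest probe set. A second bright Fabp4 probe set read 119 on both the control and HIF-1a-labelled arrays and 67.8 on the HIF-2a-labelled array. With all Fabp4 probe sets averaged, the difference between the hairpins was −0.69, under 2-fold. Adipoq (adiponectin) was 1.53 higher on the HIF-1a-labelled array than the nonspecific level to which its dim control value was raised, and 0.01 higher on the HIF-2a-labelled array. Lep and Retn were dim throughout. The adipocyte sum was nearly all Fabp4. Adipoq, like the brightest Fabp4 probe set, was highest on the HIF-1a-labelled array. Between the hairpins the log2 difference was −1.52 for Adipoq and −1.27 for that Fabp4 probe set. Adipoq was dim on the control and barely above the level on the HIF-2a-labelled array, so it gives no order of those arrays. Mesenchymal progenitor markers were seen on each array (7 of 7), with sums of 504, 578 and 427 that were mostly Nt5e (407, 458 and 324). Of the 7, 3 were above control on the HIF-2a-labelled array, 3 were below and 1 was equal. Between the hairpins 1 of the 7, Pdgfrb (7.88, 14.6 and 6.95), was at least 2-fold lower, beside 0.834% of 8878 genes above the level. Thy1 read 13.1, 12.4 and 6.72. Its difference from control on the HIF-2a-labelled array was −0.96, and −1.19 after cyclic loess scaling. The neutrophil, adipocyte and mesenchymal progenitor sums all had the order of Hp over the arrays, but not every gene within each list did. The part of these sums in the Hp difference was not tested. A technical measure moved too. Hybridisation controls, transcripts of other organisms added to the labelled RNA, had over their 18 probe sets a median difference from control of −0.84 on the HIF-2a-labelled and 0.08 on the HIF-1a-labelled array, and their part in the member differences was not tested. The probe sets nearest in brightness had a median HIF-2a-labelled minus control difference of 0.00 beside Hp, Cp and Ptx3 and of −0.01 beside Saa3 and Lcn2.

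Finally, genes with the pattern most like each member were sought by the distance between the log2 differences from control on both hairpin arrays, over 3 arrays and 8255 other genes above the nonspecific level on all of them. Hp had no near neighbour. The nearest were Sned1, a matrix protein gene (31.99 on the control, 43.3 on the HIF-1a-labelled and 8.80 on the HIF-2a-labelled array), at a distance of 0.32, Dkk3 (42.5, 46.5 and 11.7) at 0.36 and Serpina3n at 0.42. For Cp they were Fabp5, a fatty acid carrier (118, 108 and 51.1), at 0.07, Olfml3 at 0.14 and Meltf, a member of the transferrin family (13.3, 13.0 and 6.37), at 0.16.

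The other members had crowded surroundings. Within a distance of 0.1 there were 157 genes around Saa3, 132 around Lcn2 and 14 around Ptx3, against 1 around Cp and 0 around Hp. The nearest were Mfge8, Emp2 and Iscu for Saa3, Slc7a2, Gm14322 and Ikbip for Lcn2, and Use1, Krtap21-1 and Fam117b for Ptx3, all within 0.03. With 3 arrays and no replicate, a near pattern for a small difference is shared by many genes.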

How the data were processed

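Expression was measured on 3 Affymetrix arrays, 1 each for control, HIF-1a and HIF-2a hairpins, grouped by their titles. The authors deposited 1 table of intensity values made with RMA, per the submitters' processing notes, with version and settings not given in the sources used here. The values are on a linear scale, and among 1-gene probe sets of at least 64 on the HIF-1a and control arrays 25.4% were exactly equal, so small differences may not be recorded. Precision is limited by there being 1 array per group.

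Python 3.11.15, pandas 2.3.3 and limma 3.58.1 (R 4.3.3, cyclic loess only) were used. Log2 differences were taken with no scaling. Of 29449 probe sets listed with genes, 28898 had 1 gene; 28689 were named through their Entrez identifier by RefSeq (GRCm38.p6), and 551 with several genes were left out. Where a gene had several probe sets, the one of highest mean log2 value stood for it. For counts of differences of at least 2-fold, dim values were raised to 3.47. With 1 array per group no test was run. Members and lists were chosen with earlier results of these data known. Named genes were the members, list genes past 2-fold, some of the inducers and receptors, leading markers, and the 3 nearest genes per member. Further list genes were chosen after their values were seen. Counting was tested on simulated data. Scaling, the treatment of dim values, brightness minimums, an added 32 and the choice of probe set were the alternatives.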

Additional observations from a re-analysis of the deposited data

How the results depend on the processing

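Over the alternatives tried, the Hp difference between the HIF-2a-labelled and control arrays ran from −2.25 to −1.93 and that of the brighter Cp probe set from −1.32 to −1.02, always past 2-fold; for Ptx3 it ran from −0.64 to −0.50, for Saa3 from −0.35 to −0.14 and for Lcn2 from −0.37 to −0.16. With 32 added before log2 the Cp difference between the hairpins was −0.97, just under 2-fold. Counts over all probe sets depended on the minimum and the scaling. For the HIF-1a-labelled array against control, 569 higher became 372 with cyclic loess, 237 at a minimum of 16 (chosen after seeing the data), 31 at 64 and 17 with 32 added, and 7 lower became 11 with cyclic loess, 15 with each array's own nonspecific level, 27 with dim values not raised, 1 at 64 and 0 with 32 added. For the HIF-2a-labelled array against control, 1081 higher became 698, 489, 56 and 42 (cyclic loess, 16, 64, 32 added), and 59 lower became 94 with cyclic loess, 29 at 64 and 11 with 32 added. Between the hairpins, 153 higher became 93 at 16, 15 at 64 and 5 with 32 added, and 96 lower became 39 at 64 and 18 with 32 added. The median of all genes in the HIF-2a-labelled comparison with control was 0.14 as deposited and 0.03 after cyclic loess. Averaging all probe sets of a gene left 2 in place of 4 other acute-phase genes lower between the hairpins and gave 1 iron gene, Tfrc, higher than control on the HIF-2a-labelled array; cyclic loess put 1 signalling gene, Il1r1, past 2-fold there. No paired analysis was possible because each group has 1 array. No replicate could be left out.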

Other observations

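Transferrin (Trf), the iron carrier of the blood, read 4.97 on the control, 4.02 on the HIF-1a-labelled and 2.30 on the HIF-2a-labelled array, the last under the nonspecific level. Slc39a14, an importer of iron that is not bound to transferrin, was singled out after its values were seen because its probe sets differed in direction. The brightest one read 145, 127 and 88.7, another read 21.5, 27.5 and 15.9, and both were lowest on the HIF-2a-labelled array. The dimmest Slc39a14 probe set was above control on both hairpin arrays, by 0.81 on the HIF-1a-labelled (19.3) and 0.71 on the HIF-2a-labelled array (18.0) on the log2 scale.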
